A study of Mus musculus with 88 samples.

Results

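Heat shock chaperones were followed in bulk RNA of the nucleus accumbens, from mice of both sexes, through 10 genes: Hspa1a, Hspa1b, Dnajb1, Hsph1, Hspa8, Hsp90aa1, Hspb1, Bag3, Hspa5 and Ahsa1. They are 10 of the 55487 genes in the deposited count table, and all 10 were among the 25420 genes with enough counts to be tested. They were taken by name, and were chosen on sight of their CPM in the 12 groups, their differences between guides in the 6 arms and their covariation across libraries. These values are therefore a description. The p-values printed for them, whether from fits of all tested genes or from permutations of libraries, are no independent evidence about the group.

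Chaperones hold unfolded proteins and help them fold. Hsp70 proteins bind exposed hydrophobic stretches in cycles of ATP hydrolysis that J-domain proteins start and nucleotide exchange factors end, while Hsp90 proteins take over partly folded clients such as kinases and steroid receptors. Some chaperone genes are transcribed at all times and others mainly after heat shock factor 1 is released by unfolded protein; in the endoplasmic reticulum a separate unfolded protein response serves the same end. In brain, neurons are known for high levels of the constitutive forms and for a high threshold of induction of the inducible Hsp70, which glia reach more readily.

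The tissue came from mice backcrossed to C57BL/6 and was taken 6 days after surgery, in which a pair of herpes simplex vectors had brought in a dead Cas9 joined to CREB(S133D), a form of the activator CREB that is always active, and a guide RNA. The guide was g11, aimed at the Fosb locus, or gNT, which has no target. In the D1 arms the vectors needed Cre and the mice were D1-Cre; in the D2 arms the vectors needed Cre and the mice were D2-Cre; in the D1-D2 arms the mice were again D1-Cre but the vectors did not need Cre. Both sexes and both guides give 12 groups. The libraries used were 6 with the Fosb guide and 8 with the control guide in female D1 mice, 7 and 4 in male D1 mice, 8 and 8 in female D2 mice, 7 and 8 in male D2 mice, 12 and 8 in female D1-D2 mice, and 4 and 7 in male D1-D2 mice. All mice therefore carried the Cas9 fusion and a guide, and there was no group without vectors. The vectors reach only part of the tissue, and the labels do not give the share of cells infected. Tissue was sequenced whole, so that fewer cells of a type and less RNA per cell cannot be told apart.

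Library totals lay between 12430387 and 69568367 counts (median 31393804). More than 90% of the counts of 4 libraries, each with the Fosb guide, fell on 10 genes, which left 430059 to 751699 counts for every other gene, against at least 3317723 in the remaining libraries; these 4 are called shallow. They are female D2 libraries 17907 and 18432, female D1-D2 library 19610 and male D1-D2 library 18919. A group of 9 male D2 libraries was sequenced as batch 2, 3 with the Fosb guide and 6 with the control guide, and all others as batch 1. In 2 female libraries, 17376 and 19749, the Y-linked Ddx3y was over 10 CPM. Medium spiny neuron markers were present in every library, with Ppp1r1b at 65.4 to 834 CPM and Drd1 at 42.6 to 450 CPM. The summed level of 6 cortical glutamatergic markers varied more, at 4.71 to 964 CPM. Fosb itself did not pass in any arm, with log2 fold changes of 0.41, 0.48, −0.37, −0.30, 0.08 and 0.60 in female D1, male D1, female D2, male D2, female D1-D2 and male D1-D2 mice.

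The upstream sequences of 5 members are shown because they hold matches to the sites by which these genes are known to be induced. The sequence next to the transcription start was taken from RefSeq on GRCm38.p6, with 8 of the 10 members in that table; Hsp90aa1 and Hspa8 were not. For Hsph1, which has 2 starts there, the one that lies farther into the gene is shown. Each line gives 250 bases in the direction of transcription, in lower case. Capitals mark a pair of heat shock units, either GAANNTTC or TTCNNGAA, or in Hspa5 the endoplasmic reticulum stress response element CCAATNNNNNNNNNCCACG.
Hspa1a, chr17:34972157-34972406, minus strand: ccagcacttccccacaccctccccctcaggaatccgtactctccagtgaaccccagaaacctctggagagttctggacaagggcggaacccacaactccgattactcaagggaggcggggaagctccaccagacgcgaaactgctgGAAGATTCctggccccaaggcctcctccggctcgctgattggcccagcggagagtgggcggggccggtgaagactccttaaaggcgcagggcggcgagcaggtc
Hspa1b, chr17:34959239-34959488, minus strand: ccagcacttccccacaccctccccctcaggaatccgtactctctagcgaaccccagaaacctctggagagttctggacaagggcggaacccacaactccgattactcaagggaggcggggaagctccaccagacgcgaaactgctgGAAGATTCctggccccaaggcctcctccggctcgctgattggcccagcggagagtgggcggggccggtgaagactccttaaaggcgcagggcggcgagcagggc
Hspb1, chr5:135887669-135887918, plus strand: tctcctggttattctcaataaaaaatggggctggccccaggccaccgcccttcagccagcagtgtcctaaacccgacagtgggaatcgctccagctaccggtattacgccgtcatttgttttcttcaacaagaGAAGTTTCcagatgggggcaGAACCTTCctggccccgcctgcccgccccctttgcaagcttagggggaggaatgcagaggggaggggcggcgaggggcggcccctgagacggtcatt
Hsph1, chr5:149636316-149636565, minus strand: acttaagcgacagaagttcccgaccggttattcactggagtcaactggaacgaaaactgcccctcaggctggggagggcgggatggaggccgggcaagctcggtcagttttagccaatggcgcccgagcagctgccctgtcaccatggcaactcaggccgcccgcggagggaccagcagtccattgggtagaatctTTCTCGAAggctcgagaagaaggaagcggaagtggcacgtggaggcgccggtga
Hspa5, chr2:34771840-34772089, plus strand: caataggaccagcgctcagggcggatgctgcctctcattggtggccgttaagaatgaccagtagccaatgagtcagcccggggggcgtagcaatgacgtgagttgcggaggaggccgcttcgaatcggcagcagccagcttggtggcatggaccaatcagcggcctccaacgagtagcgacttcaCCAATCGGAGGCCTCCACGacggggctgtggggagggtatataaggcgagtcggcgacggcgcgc

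The Hspa1a and Hspa1b sequences were identical at 247 of 250 positions (98.8%), and both held GAAGATTC beginning 104 bases before the start. Hspb1 held 2 matches to GAANNTTC, which is a palindrome and so reads alike on both strands. Of 32851 promoter sequences from that source, 6.69% held GAANNTTC and 7.17% held TTCNNGAA, and 12.8% held at least 1 of them, against 4 of the 8 members found there. The longer forms GAANNTTCNNGAA and TTCNNGAANNTTC were each in 0.466% of promoters and in 0 members. The endoplasmic reticulum element was in 0.113% of promoters on either strand and in Hspa5 alone among the members, and the CREB site TGACGTCA was in 1.55% of promoters and in 0 members. Matches describe these windows and nothing about which factor was bound.

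Members spanned a wide range of abundance. Per kilobase of exon, the median CPM over all 87 libraries was 280.5 for Hspa8, the constitutive Hsp70 of the cytosol, 115.2 for Hsp90aa1, the inducible Hsp90 of the cytosol, and 84.95 for Hspa5, the Hsp70 of the endoplasmic reticulum also called BiP. Next were Hsph1, an Hsp110 that exchanges nucleotide on Hsp70, at 20.5, Ahsa1, which activates the Hsp90 ATPase, at 14.18, and Dnajb1, a J-domain partner of Hsp70, at 13.87. The small heat shock protein gene Hspb1 was at 3.643 and Bag3, an exchange factor that links Hsp70 to small heat shock proteins and to autophagy, at 1.967. The inducible Hsp70 genes were lowest, Hspa1b at 0.7523 and Hspa1a at 0.566 CPM per kilobase. Of the stretches of 50 bases in their transcripts, 62.3% in Hspa1b and 58.8% in Hspa1a also occur in the other copy. How reads from such stretches were counted is not known here, so both levels, and their rank, may be too low.

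The order by variation was nearly the reverse. Over batch 1 libraries that were not shallow, the 90th percentile of CPM was 4.21 times the 10th for Hspa1b, 3.11 times for Hspa1a, 3.08 times for Bag3, 2.21 times for Hspb1 and 2.02 times for Hsph1. It was 1.77 times for Hsp90aa1, 1.6 times for Hspa5, 1.44 times for Dnajb1, 1.34 times for Ahsa1 and 1.32 times for Hspa8. Low counts add to the spread of the rarer genes: the median count was 60 for Hspa1a, 71 for Hspa1b, 126 for Hspb1 and 162 for Bag3, against 43173 for Hspa8.

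Hspa1a (chromosome 17, 34969190 to 34972156, minus strand, mm10) and Hspa1b (chromosome 17, 34956436 to 34959238, minus strand) encode the inducible Hsp70 from neighbouring copies. Of the stretches of 50 bases in the Hspa1a transcript 58.8% also occur in that of Hspa1b, so how reads were split between them is uncertain. In male D1-D2 mice with the Fosb guide Hspa1a was at 18.8, 1.58, 2.97 and 8.27 CPM, against 1.08 (lowest), 1.92 (median) and 8.85 (highest) in the 7 controls. Hspa1b was at 27.3, 1.60, 9.90 and 13.7 CPM in these libraries, against 0.691, 2.54 and 11.0 in the controls. Libraries 17728 and 19211 were high in both genes with the Fosb guide, library 18749 was low, and the value of 2.97 came from the shallow library 18919 and rests on 3 counts; the groups overlapped, since control library 19109 was also high. In the other 5 arms no library exceeded 3.83 CPM of Hspa1a, while Hspa1b reached 10.7 CPM in control library 18383 of male D1 mice and 7.07 CPM in control library 3631 of male D2 mice.

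Summing both copies takes away the uncertainty of how counted reads were split, but not that of shared reads left uncounted. The sum was 3.19, 17.4 (median of 4) and 46.1 CPM at the lowest, median and highest in male D1-D2 mice with the Fosb guide, against 1.94, 4.45 and 19.8 CPM in their controls. It was over 10 CPM in 6 of 87 libraries, of which 3 were male D1-D2 libraries with the Fosb guide and 1 a male D1-D2 control. The other 2 were male D1 control 18383 and male D2 control 3631. Among those 3 was the shallow library 18919, whose sum of 12.9 CPM rests on 3 counts of Hspa1a and 10 of Hspa1b. That sum also enters the median of 17.4 CPM. Hspa1b stood at 1.24 times Hspa1a in the median of the 83 libraries that were not shallow, and library 18383, with 3.53 times, had the highest ratio ahead of 2.33 in the next. In the shallow library 19610 both genes and Hspb1 had a count of 0, which allows up to 4.82 CPM by counting error.

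**Figure D1:**
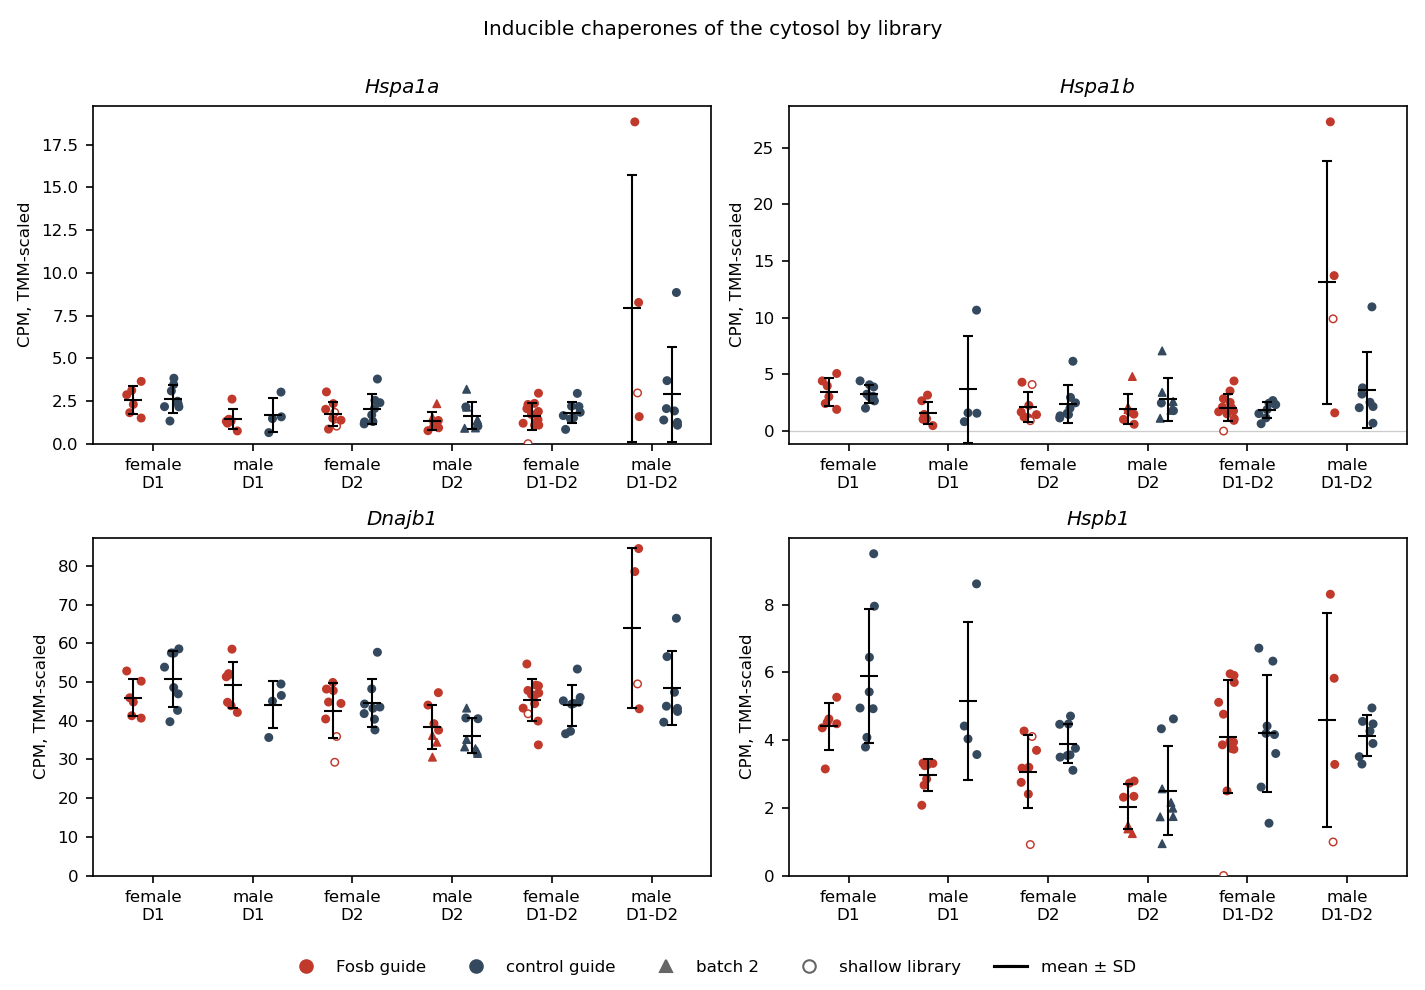
Level of Hspa1a, Hspa1b, Dnajb1 and Hspb1 in each library (CPM scaled by TMM, linear axes) in 6 arms, with the Fosb guide in red left of the control guide in blue; triangles are batch 2, open symbols shallow libraries, and bars the mean ± SD. In male D1-D2 mice the Fosb guide libraries spread from 1.58 to 18.8 CPM of Hspa1a around a mean of 7.91, with 1 control at 8.85.

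Dnajb1 (chromosome 8, 83608193 to 83612653, plus strand) showed a smaller form of the same picture. It was at 78.5, 43.1, 49.5 and 84.5 CPM in male D1-D2 mice with the Fosb guide, against 39.6, 43.7 and 66.5 CPM (lowest, median, highest) in controls. The libraries with the most Hspa1a, 17728 and 19211 with the Fosb guide and 19109 among controls, also had the most Dnajb1 in their groups. Its group means elsewhere lay between 36.1 ± 4.61 CPM in male D2 controls (SD, n = 8) and 50.7 ± 7.24 CPM in female D1 controls (n = 8).

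Hspb1 (chromosome 5, 135887919 to 135889563, plus strand) encodes a small heat shock protein that holds unfolded clients without ATP and is known in glia and vessels. It was at 2.07, 3.24 and 3.32 CPM (lowest, median, highest of 7) in male D1 mice with the Fosb guide, against 4.41, 4.03, 3.57 and 8.61 CPM in controls. Library 18383 held the highest control value. In female D1 mice it was at 3.15, 4.50 and 5.26 CPM with the Fosb guide, against 3.79, 5.18 and 9.499 CPM in controls, and these overlapped. In male D2 mice the means were 2.54 ± 0.252 CPM (n = 4) against 4.48 ± 0.206 CPM (n = 2) in batch 1 and 1.36 ± 0.118 CPM (n = 3) against 1.85 ± 0.542 CPM (n = 6) in batch 2. Both batches had the lower mean with the Fosb guide, and batch 2 was the lower batch for both guides.

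Bag3 (chromosome 7, 128523616 to 128546981, plus strand) varied widely within groups. In female D1-D2 mice it ran from 3.12 to 7.67 CPM with the Fosb guide and from 1.37 to 10.6 CPM in controls. The lowest group was the male D1 controls at 2.73, 2.99, 3.29 and 1.73 CPM, against 2.07, 3.65 and 5.69 CPM (lowest, median, highest) with the Fosb guide. Library 18383, which was high in Hspa1b and Hspb1, was the lowest of these in Bag3.

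**Figure D2:**
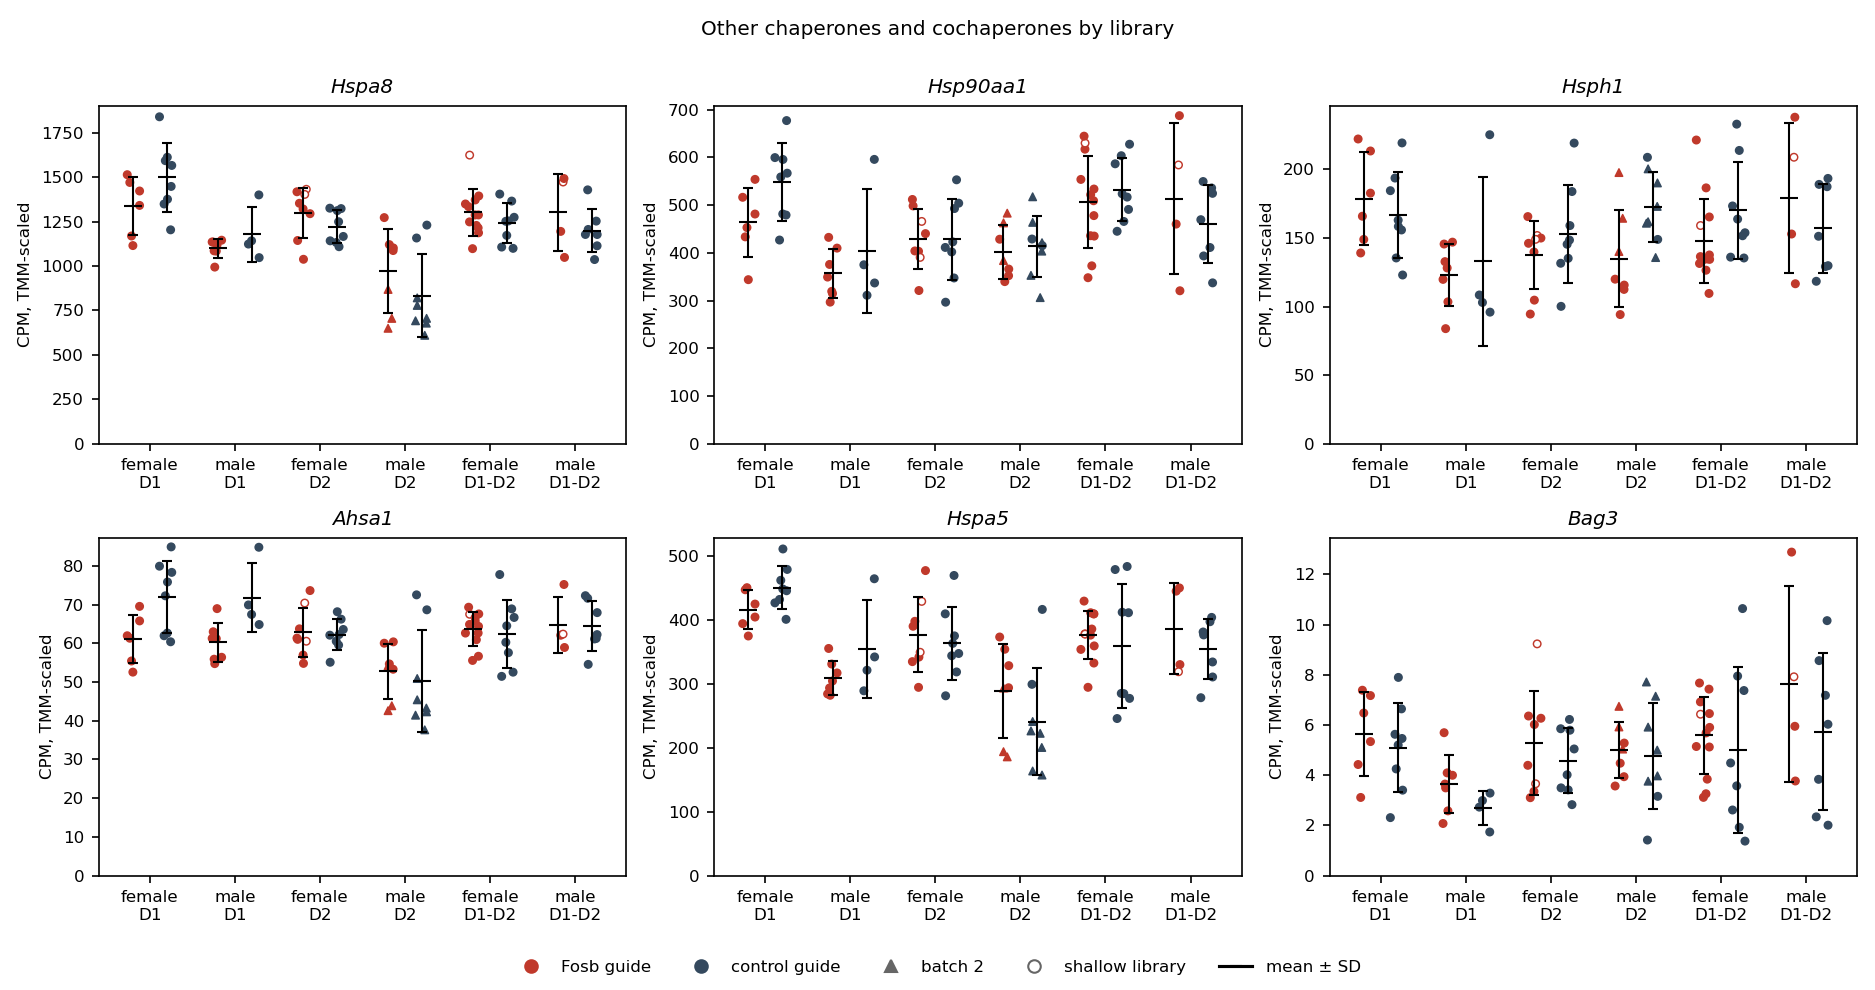
Level of Hspa8, Hsp90aa1, Hsph1, Ahsa1, Hspa5 and Bag3 in each library (CPM scaled by TMM, linear axes from 0), drawn as for the inducible chaperones. Groups overlap in most panels, and the male D2 libraries of batch 2 (triangles) lie below those of batch 1 in Hspa8 and Hspa5, and mostly so in Ahsa1.

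The abundant chaperones differed less between groups. Hspa8 (chromosome 9, 40800984 to 40810087, plus strand) had its highest mean in female D1 controls, 1500 ± 196 CPM (n = 8), and its lowest in male D2 controls, 834 ± 232 CPM (n = 8). The low value of the male D2 mice followed the batch: with the Fosb guide Hspa8 was at 741 ± 114 CPM in batch 2 (n = 3) and 1150 ± 85.9 CPM in batch 1 (n = 4), and in controls at 714 ± 75.1 CPM (n = 6) and 1190 ± 51.4 CPM (n = 2). Hspa5 (chromosome 2, 34771970 to 34777547, plus strand) likewise had 224 ± 59.9 CPM in batch 2 against 337 ± 34.3 CPM in batch 1 with the Fosb guide, and 202 ± 34.7 against 358 ± 82.9 CPM in controls. Hsp90aa1 (chromosome 12, 110690605 to 110702728, minus strand) did not share this step, with 443 ± 52.5 CPM in batch 2 and 372 ± 39.5 CPM in batch 1 with the Fosb guide, and 411 ± 75.7 and 422 ± 9.80 CPM in controls.

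Hsph1 (chromosome 5, 149614287 to 149636376, minus strand) varied more within groups than these. It was at 94.2, 114 and 120 CPM (lowest, median, highest of 4) in the batch 1 male D2 mice with the Fosb guide, against 149 and 209 CPM in their 2 controls. In batch 2 it was at 140, 164 and 198 CPM with the Fosb guide against 136, 167 and 200 CPM in controls, and the groups overlapped. Among the male D1 controls Hsph1 was at 108, 103, 95.9 and 225 CPM, and library 18383 held the highest of these values and also the highest Hsp90aa1 of its group, 596 CPM.

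Of 10 members 5 had their highest group mean in female D1 controls, namely Hspa8, Hsp90aa1, Hspa5, Ahsa1 and Hspb1, and the other 5 in male D1-D2 mice with the Fosb guide, though Hsph1 averaged 179 CPM there and in female D1 mice with the Fosb guide alike. When the 12 group means of a gene were put in order, neighbouring groups differed by less than the larger of their SDs at each of the 11 steps for 8 members. The exceptions were 1 step each in Hspa5, between female D1 mice with the Fosb guide (416 ± 30.1 CPM, n = 6) and female D1 controls (451 ± 33.8 CPM, n = 8), and in Ahsa1, between male D1 mice with the Fosb guide (60.2 ± 4.99 CPM, n = 7) and male D2 mice with the Fosb guide (52.7 ± 7.06 CPM, n = 7). The means of male D2 mice are over both batches; in batch 1 alone Ahsa1 was at 57.1 ± 3.63 CPM (n = 4) in those mice, within the SD of the male D1 value.

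Between guides, none of the 10 members passed an adjusted p of 0.05 in edgeR's quasi-likelihood test in any arm, and few genes of any kind did. The share of all 25420 genes that passed was 0.00393% in female D1 mice, 0% in male D1 mice, 0% in female D2 mice, 0.0629% in male D2 mice, 0% in female D1-D2 mice and 0.00393% in male D1-D2 mice. It was 0% for the mean over the arms and 0.00393% for the D1 effect minus the D2 effect, and 0 members passed there. DESeq2 and limma-voom with quality weights called 0 members in every arm too. At an unadjusted p under 0.05 in edgeR stood Ahsa1 in female D1 mice, Hspb1, Ahsa1 and Hspa1b in male D1 mice, Hspb1 in male D2 mice, and Hspa1a, Hspa1b and Dnajb1 in male D1-D2 mice; over the same arms 1139, 1807, 553 and 818 of all genes did.

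Male D1-D2 mice had the largest differences. The log2 fold change of the Fosb guide over the control guide was 1.88 for Hspa1b (SE 0.51), 1.56 for Hspa1a (SE 0.41) and 0.41 for Dnajb1 (SE 0.13), each with an adjusted p of 1.0. All 10 members were above 0, from 0.01 in Ahsa1 upward, with a median of 0.26 where all tested genes had a median of −0.03. These values rested on few libraries. Hspa1a was at 0.65 without library 17728 and at 1.99 without library 18749. Without library 18749 Dnajb1 was at 0.62, and both passed in edgeR with an adjusted p of 0.0474, in a fit where 4 of all tested genes passed. With library 17728 left out 8 of 10 members were above 0, and with library 19211 left out 9 of 10. Activity-induced genes were above 0 in 11 of 11 cases in this arm (median 0.42), as they were in female D1 mice (11 of 11, median 0.32) and male D1 mice (10 of 11, median 0.48), where most members lay below 0. All 10 medium spiny neuron markers were above 0 here too (median 0.19), and none of these genes passed. The summed level of 7 lymphocyte markers was 71.3 to 297 CPM with the Fosb guide against 6.86 to 299 CPM in controls, and that of 6 oligodendrocyte markers 1780 to 2920 against 1870 to 3340 CPM; no marker of either list was at 0 in all libraries, and their part in the chaperone differences was not tested.

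In female D1 mice 7 of 10 members were below 0 (median −0.13, against 0.004 for all tested genes). So were 19 of 23 further cytosolic chaperones, 8 of 8 subunits of the chaperonin TRiC and 17 of 20 endoplasmic reticulum genes. In male D1 mice 8 of 10 members were below 0 (median −0.19, against 0.03), and of the same lists 17, 7 and 12. The members' shift in males rested on control library 18383: without it 6 of 10 were above 0, with a median of 0.14. Both Hspa1b (0.25) and Hsph1 (0.26, against −0.11 with it) changed sign. Ahsa1 (chromosome 12, 87266479 to 87273998, plus strand) was at 52.6, 61.6 and 69.5 CPM in female mice with the Fosb guide against 60.4, 74.1 and 84.9 CPM in controls, and at 54.7, 61.2 and 69.0 CPM in male mice with the Fosb guide against 69.9, 67.5, 64.9 and 84.8 CPM in controls. The groups overlapped in both sexes, with log2 fold changes of −0.24 (SE 0.08) in females and −0.25 (SE 0.10) in males. Hspb1 was at −0.42 (SE 0.23) in females and −0.79 (SE 0.26, adjusted p 0.686) in males. Hspa1b was at −1.17 (SE 0.53) in male D1 mice with all libraries. Cell type markers moved as well: in female D1 mice all 6 cortical glutamatergic markers were above 0 (median 2.19), summing to 45.4 to 677 CPM with the Fosb guide and 4.71 to 224 CPM in controls, and in male D1 mice all 7 lymphocyte markers were above 0 (median 0.85), summing to 148 to 317 CPM with the Fosb guide and 12.2 to 268 CPM in controls. No marker of either list was at 0 in all libraries of a group, and their part in the chaperone differences was not tested. In D2 mice Hspb1 was at −0.30 (SE 0.22) in females and −0.60 (SE 0.23) in males, and in D1-D2 mice at 0.05 (SE 0.19) in females and 0.34 (SE 0.27) in males.

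Over the mean of the arms Hspb1 was at −0.28 (SE 0.10, adjusted p 0.516), Bag3 at 0.28 (SE 0.13) and Ahsa1 at −0.08 (SE 0.03). Bag3 lay above 0 in all 6 arms, between 0.14 and 0.44. Microglia markers moved with it: over the mean of the arms 5 of 6 were above 0, with a median of 0.24 and 4 at an unadjusted p under 0.05, and their part in the value of Bag3 was not tested. Hspa8 was at 0.004 (SE 0.04) and Hspa5 at −0.002 (SE 0.05).

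**Figure D3:**
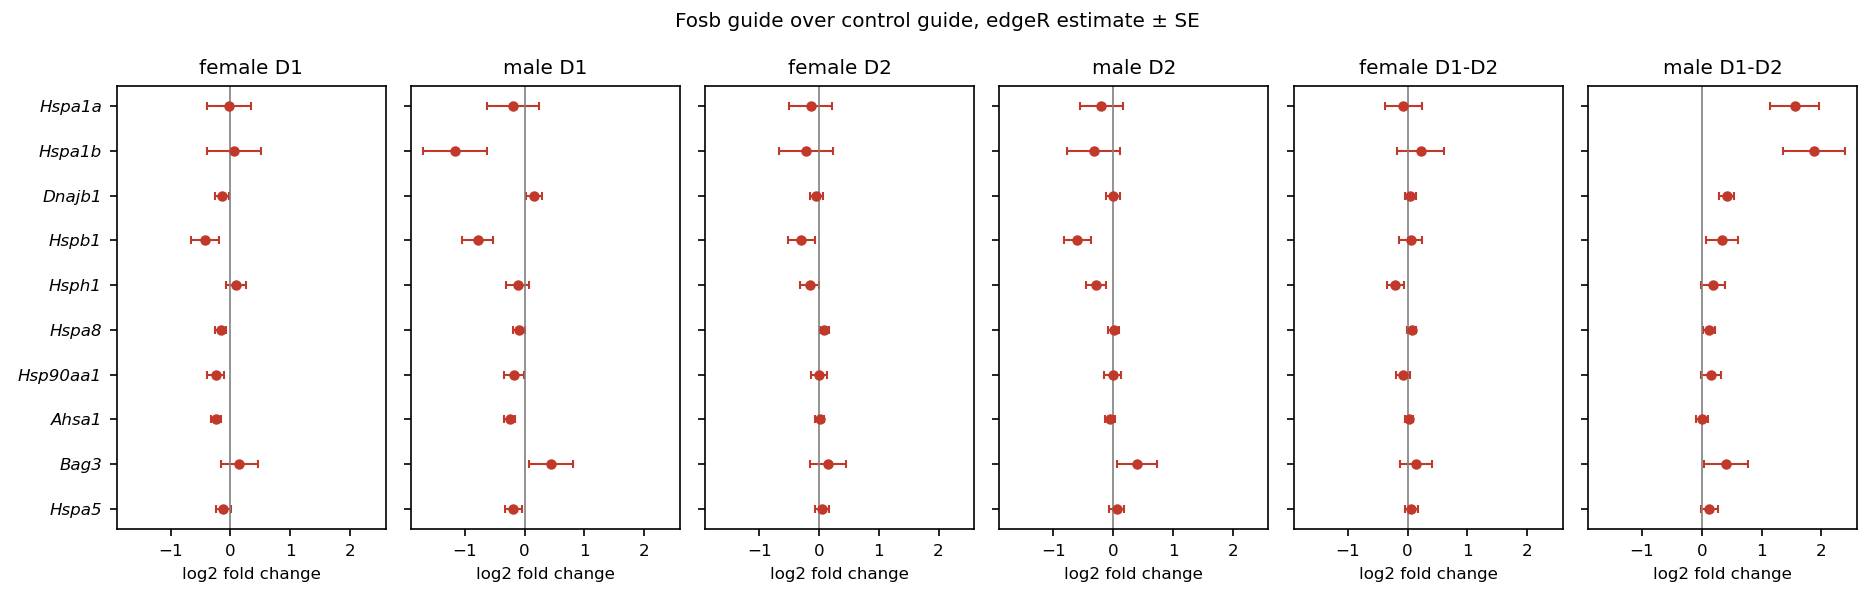
Log2 fold change of the Fosb guide over the control guide for each member in each of 6 arms, as edgeR estimates ± SE. Most estimates lie within 0.5 of 0, while Hspa1a (1.56) and Hspa1b (1.88) in male D1-D2 mice, Hspb1 (−0.79) and Hspa1b (−1.17) in male D1 mice and Hspb1 (−0.60) in male D2 mice lie farther out.

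Among control-guide libraries 2 of 10 members passed between the sexes, against 28.6% of all tested genes. Hsp90aa1 was higher in females by 0.26 (SE 0.09, adjusted p 0.023) and Hspa8 by 0.16 (SE 0.06, adjusted p 0.0295). By arm, Hsp90aa1 averaged 548 ± 81.0 CPM in female and 405 ± 130 CPM in male D1 controls (n = 8 and 4), 429 ± 84.9 and 414 ± 64.3 CPM in D2 controls (n = 8 and 8), and 533 ± 66.7 and 460 ± 81.6 CPM in D1-D2 controls (n = 8 and 7). Neither gene passed with DESeq2 size factors, with DESeq2, or in batch 1 alone. Without the batch term Hspa5 passed beside both (0.32, adjusted p 0.00428, against 0.16 and adjusted p 0.113 with it). Without male D1 control 18383 Hsph1 (0.28, adjusted p 0.0315) and Hspa5 (0.22, adjusted p 0.0352) passed as well. Over the fits that each left out 1 male D1 control, 6209 to 7339 of all genes passed. With all libraries 53.7% of the passing genes were higher in females with TMM scaling and 35.5% with DESeq2 size factors. Bag3 was at 0.45 (SE 0.21, adjusted p 0.0886).

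Other chaperone lists, like the 28.6% of all genes that passed, moved in both directions between female and male controls. Of 23 further cytosolic chaperones and cochaperones 5 rose and 3 fell in females relative to males: Hspa2, an Hsp70 family member, at 0.40 and Hsp90ab1, the constitutive Hsp90, at 0.35 rose, and Cacybp at −0.41 and Bag1 at −0.21 fell. Of 20 endoplasmic reticulum chaperones and unfolded protein response genes 7 rose and 0 fell, with Hyou1, an Hsp110 of that compartment, at 0.43, the lectin chaperone Canx at 0.28, the degradation factor Sel1l at 0.42 and Calr at 0.27. Of 8 mitochondrial chaperones and proteases 3 rose, among them the protease Lonp1 at 0.31, and 3 fell, namely the cochaperonin Hspe1 at −0.41, the protease subunit Clpp at −0.22 and the exchange factor Grpel1 at −0.19. Among 4 regulators the transcription factor Hsf1 rose (0.27) and its binding protein Hsbp1 fell (−0.23). Of 3 RNA-binding proteins induced by cold Rbm3 (−0.70) and Cirbp (−0.28) fell. Of the 8 subunits of the chaperonin TRiC 1 rose, Cct8 (0.12). The scaling moved these counts: with DESeq2 size factors, where 30.9% of all genes passed, 4 of the 23 cytosolic genes rose and 6 fell, 6 of the 20 endoplasmic reticulum genes rose and 2 fell, 1 of the 8 mitochondrial genes rose and 3 fell, 3 of the 3 cold-induced genes fell, and 0 TRiC subunits rose while 4 fell. Markers of cell types moved in the same contrast under TMM scaling: 3 of 10 medium spiny neuron, 2 of 6 astrocyte, 2 of 6 microglia, 2 of 6 endothelial, 1 of 6 oligodendrocyte and 1 of 7 lymphocyte markers rose in females, as did 1 of 7 glucocorticoid-responsive and 1 of 11 activity-induced genes, while 0 of 6 cortical glutamatergic and 0 of 5 erythrocyte genes passed and none of these lists had a gene that fell. Their part in the chaperone differences was not tested. Between guides 0 genes of these 16 lists passed in any arm.

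Between control groups of D2-Cre and D1-Cre females 0 of 10 members passed, against 0.0197% of all genes. All 10 were below 0 in D2-Cre relative to D1-Cre, with a median of −0.30 where all genes had 0.01. Other chaperone lists lay mostly below 0 too. These were 20 of 20 endoplasmic reticulum genes, 8 of 8 TRiC subunits, 20 of 23 cytosolic chaperones and 6 of 8 mitochondrial chaperones. In the same contrast all 6 cortical glutamatergic markers were above 0 (median 1.26), summing to 4.75 to 751 CPM in D2-Cre controls and 4.71 to 224 CPM in D1-Cre controls, and all 6 astrocyte markers were below 0 (median −0.10). Hspa8 was at 1110, 1210 and 1330 CPM (lowest, median, highest) in D2-Cre controls against 1200, 1510 and 1840 CPM in D1-Cre controls, a difference of −0.30 (SE 0.08, adjusted p 0.846), and the groups overlapped. Vectors that did not need Cre, against those that did, gave 0 members of 10 in females (0.00393% of all genes passed), with 9 of 10 below 0. So were 18 of 20 endoplasmic reticulum genes, 8 of 8 TRiC subunits, 18 of 23 cytosolic chaperones and 4 of 8 mitochondrial chaperones. Cortical glutamatergic markers were again 6 of 6 above 0 (median 1.26). The part of these markers in either shift was not tested. Both comparisons share the female D1 controls, the group with the highest level of 5 members. In males the same contrast gave 0 of 10 members, against 10.1% of all genes; Bag3 came nearest, at 2.01, 6.03 and 10.2 CPM without the need for Cre against 2.73, 2.99, 3.29 and 1.73 CPM with it, a difference of 1.09 (SE 0.38, adjusted p 0.0513). It passed with DESeq2 (0.99, adjusted p 0.0398), which called 16.9% of the genes with an adjusted p, and with limma-voom (1.21, adjusted p 0.00244). By limma-voom Hsph1, Hsp90aa1 and Hspa1a passed too, 4 of 10 members where 35.0% of all genes did. Hsph1 was at 0.24 (SE 0.20, adjusted p 0.48), but passed at 0.62 (adjusted p 0.0422) without control 18383. The count of all genes rested on the 4 male D1 controls: 2567 passed, against 407 without library 17789, 0 without 18068, 613 without 18069 and 2645 without 18383. Of those that passed 74.6% were higher without the need for Cre under TMM scaling and 60.9% under DESeq2 size factors. Astrocyte markers summed to 1880 to 4280 CPM in the first of these male groups and 1640 to 2250 CPM in the second, with all 6 above 0 in their difference and Slc1a3 passing; their part in the difference of Bag3 was not tested.

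Across libraries the members fell into blocks of unequal likeness. Each value was taken as the deviation of log2 CPM from the mean of its group, in the 78 libraries of batch 1. The median Pearson r of the 45 pairs was 0.185, where members with all other tested genes had a median of 0.034, and 39 pairs were above 0. Without the shallow libraries the median was 0.316 with 43 pairs above 0 (other genes −0.001), in control-guide libraries alone it was 0.338, and in the 9 libraries of batch 2 it was 0.361 with 32 pairs above 0. With DESeq2 size factors it was lower, at 0.137 with 33 pairs above 0 (other genes −0.015). A prior count of 0.5 gave 0.169 with 38 pairs above 0. Over the pairs in batch 1 r ran from −0.211 (Hspa8 with Hspb1) to 0.866 (Hspa1a with Hspa1b). Of these, 10 pairs exceeded 0.5, where 5.32% of the pairs of a member with another gene did. With DESeq2 size factors 7 pairs did (4.32% with another gene), and 8 did with a prior count of 0.5 (6.37%). Without the shallow libraries 9 pairs did; both pairs of Hspb1 with the inducible Hsp70 genes were then below, and Hspb1 with Hspa5 (0.589, against 0.301 with them) was above. In the 9 libraries of batch 2 17 pairs exceeded 0.5, where 22.3% of the pairs of a member with another gene did. All points share the tissue, and libraries differ in depth.

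A first block held the inducible Hsp70 genes and their J-domain partner. Hspa1a and Hspa1b had r = 0.866 (0.852 without the shallow libraries, 0.937 in the 9 libraries of batch 2); how reads common to both copies were counted is not known here. Dnajb1, a gene of another family, had r = 0.534 with Hspa1a and 0.547 with Hspa1b, or 0.685 and 0.696 without the shallow libraries and 0.397 and 0.389 in batch 2. With DESeq2 size factors Dnajb1 was at 0.455 and 0.513, and with a prior count of 0.5 at 0.468 and 0.495. Hspb1 seemed to belong to this block with 0.660 and 0.614, but these were 0.281 and 0.295 without the shallow libraries, where library 19610 had 0 counts in all 3 genes, and −0.536 and −0.566 in batch 2.

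A second block held Hsp90aa1 with Hsph1, Hspa8 and Ahsa1, all of the cytosol. Hsp90aa1 had r = 0.600 with Hsph1, 0.574 with Hspa8 and 0.571 with Ahsa1, and Hspa8 with Ahsa1 had 0.596. In batch 2 these were 0.649, 0.761, 0.694 and 0.967. The inducible Hsp70 genes were less like this block in batch 1 and nearer to it in other sets. Hspa1a had 0.120 with Hsp90aa1 in batch 1, 0.350 without the shallow libraries, 0.444 in control-guide libraries and 0.831 in batch 2, and Hspa1b had 0.220, 0.389, 0.512 and 0.818. With Hspa8 Hspa1a had −0.153, 0.092, 0.236 and 0.374 in the same order. A further pair was Bag3 with Hspa5, at 0.581 (0.807 in batch 2). Bag3 had −0.171 with Hspa8 and −0.160 with Ahsa1.

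**Figure D4:**
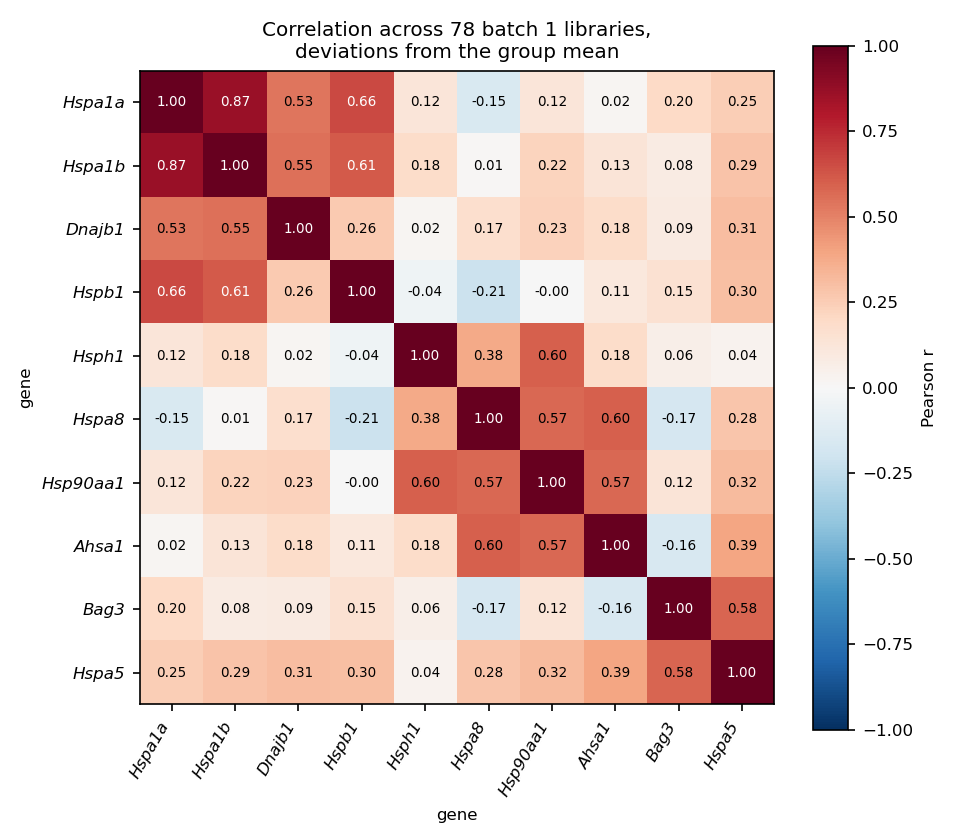
Pearson r of each pair of members over the 78 libraries of batch 1, from log2 CPM as deviations from the group mean; red is positive, blue negative. The inducible Hsp70 genes with Dnajb1 and Hspb1, the Hsp90aa1, Hspa8, Hsph1 and Ahsa1 square, and the pair of Bag3 and Hspa5 hold the 10 values above 0.5. Within that square Hsph1 was at 0.379 with Hspa8 and 0.185 with Ahsa1.

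The genes most like each member outside the group were chosen by r in batch 1. They came from 11873 genes whose mean over all libraries reached 5 CPM. Their r was then taken in the 9 libraries of batch 2, which entered the choice of these genes only through that mean. Each pair of values below gives batch 1 first and batch 2 after it. Hsp90aa1 was most like Hspa4, an Hsp110 of the cytosol (r = 0.846 and rho = 0.836; in batch 2 r = 0.966 and rho = 0.983, exact permutation of r within groups, adjusted p 0.00578 over 50 pairs). Immt, an organiser of the mitochondrial inner membrane (0.826, and 0.854, exact permutation adjusted p 0.0371), and Clip1, which binds growing microtubule ends (0.811, and 0.884, exact permutation adjusted p 0.0221), were next. Hspa5 was most like Pdia6 (0.853, and 0.980, exact permutation adjusted p 0.00578) and Pdia4 (0.825, and 0.887, exact permutation adjusted p 0.0139), both disulfide isomerases of the endoplasmic reticulum, and then P4ha1, a collagen prolyl hydroxylase subunit (0.781, and 0.758, exact permutation adjusted p 0.113).

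Ahsa1 was most like Nedd8, a ubiquitin-like modifier (0.676, and 0.750, exact permutation adjusted p 0.0914), ahead of Stip1, which hands clients between Hsp70 and Hsp90 (0.664, and 0.964, exact permutation adjusted p 0.00577), and the TRiC subunit gene Cct5 (0.627, and 0.876, exact permutation adjusted p 0.0578). Hspa8 had Ddx1 (0.674, and 0.701), Gdap2 (0.579, and 0.668) and D6Wsu163e (0.557, and 0.586), none of which passed in batch 2 (lowest exact permutation adjusted p 0.0963). Bag3 was most like the RNA helicase gene Ddx21 (0.907, and 0.925), Cttnbp2nl (0.901, and 0.983) and the ribosome-binding protein gene Rrbp1 (0.897, and 0.967), with exact permutation adjusted p of 0.013, 0.00577 and 0.00578. Hsph1 was most like the synaptic scaffold gene Dlg3 (0.908, and 0.573), Rtn1 (0.868, and 0.574) and Inpp4a (0.867, and 0.309), and none of these passed (lowest exact permutation adjusted p 0.215).

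Hspa1a and Hspa1b both had Spry4, an inhibitor of receptor tyrosine kinase signalling that such signalling induces, among their 3 nearest genes (0.776 and 0.692, and 0.894 and 0.921 in batch 2, exact permutation adjusted p 0.013 and 0.00578). Without the shallow libraries Spry4 was at 0.704 with Hspa1a and 0.544 with Hspa1b, and it was then no longer among the 3 nearest to Hspa1b, nor was it by Spearman rho. The phosphatase gene Dusp4 was near both too (0.735 and 0.660), though at 0.449 and 0.366 without the shallow libraries. The other near genes were Phf13 for Hspa1a (0.737, or 0.422 without the shallow libraries) and Mthfsd for Hspa1b (0.706, or 0.539). The partners of Dnajb1, Uspl1 (0.701), Banp (0.673) and Rsrp1 (0.604), were at 0.312, −0.272 and −0.043 in batch 2. Those of Hspb1 rested on the shallow libraries: Zfp862-ps, Mthfsd and Rccd1 had 0.856, 0.853 and 0.849 with them and 0.223, 0.421 and 0.273 without.

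Hsp90aa1 had Dleu2 (−0.644, and −0.812, exact permutation adjusted p 0.0371) and Supt20 (−0.624, and −0.813, exact permutation adjusted p 0.0139), and Hspa1b had Cep57 (−0.570, and −0.828, exact permutation adjusted p 0.0371) and Parn (−0.578). The strongest in batch 1 were Ndufb5 (−0.863) and Tmem161b (−0.858) with Bag3, at −0.539 and −0.578 in batch 2. The others were Rps27l (−0.758) and Sec61b (−0.735) with Hsph1, Svip (−0.696) and Pfn4 (−0.681) with Hspa5, Tcea1-ps1 (−0.643) and Tmem38b (−0.594) with Hspb1, and Eif2b3 (−0.574) and Ap4b1 (−0.548) with Hspa1a. Hspa8 had Mier1 (−0.573) and Rffl (−0.553), Ahsa1 had Kctd12 (−0.525) and Rbm15 (−0.512), and Dnajb1 had March7 (−0.521) and Arl4a (−0.462). Of the 30 pairs with the highest r 27 kept their sign in batch 2 and 11 passed there; of the 20 with the lowest 14 kept it and 3 passed.

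Members were also set against the mean log2 CPM of 16 lists, 160 relations in all, with permutation of libraries within groups. Hspa5 followed the 20 endoplasmic reticulum genes (r = 0.821, Spearman rho = 0.818, permutation p 1e-05, the smallest the resamples allow, adjusted 0.000123 and 9.4e-05; r = 0.792 without the 2 farthest libraries, 0.992 in batch 2). Bag3 followed the same list (r = 0.708, rho = 0.696, and 0.768 in batch 2). In batch 1 it was closer to the 6 astrocyte markers (r = 0.811, rho = 0.793, and 0.789 without the 2 farthest). In batch 2 the astrocyte markers were at 0.768, like the endoplasmic reticulum genes. Bag3 was also closer to the 6 microglia markers (r = 0.747, rho = 0.723, and 0.974 in batch 2). It ran against the 5 erythrocyte genes (r = −0.679, rho = −0.672) and the 8 TRiC subunits (r = −0.632, rho = −0.615). Each of these relations of Bag3 had an adjusted permutation p of 0.000123. In batch 2 r was −0.162 with the erythrocyte genes and 0.251 with the TRiC subunits. Bag3 also followed lymphocyte (r = 0.592, rho = 0.571), endothelial (r = 0.575, rho = 0.526) and oligodendrocyte (r = 0.467, rho = 0.452) markers, at 0.905, 0.320 and −0.418 in batch 2. Bag3 and 7 glucocorticoid-responsive genes had r = 0.708 (rho = 0.656) in batch 1 and 0.140 in batch 2. Hspa5 too followed microglia (r = 0.563, rho = 0.598), astrocyte (r = 0.537, rho = 0.605) and lymphocyte (r = 0.533, rho = 0.515) markers. In batch 2 these were at 0.796, 0.359 and 0.804. Hspa5 had r = 0.546 with the glucocorticoid-responsive genes (rho = 0.554) and 0.076 in batch 2.

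Ahsa1 followed 8 mitochondrial chaperones (r = 0.727, rho = 0.729; 0.922 in batch 2) and Hsp90aa1 the 23 further cytosolic chaperones (r = 0.648, rho = 0.665; 0.631 in batch 2), at the same adjusted permutation p of 0.000123. Hsp90aa1 and the 4 heat shock regulators had r = 0.519 and rho = 0.554 (0.481 in batch 2). Hspa1a followed 11 activity-induced genes, a list that holds Fos, Arc and Npas4 (r = 0.509, rho = 0.461, adjusted permutation p 0.0002 and 0.00153). It was at 0.470 without the 2 farthest, 0.50 without the shallow libraries and 0.766 in batch 2. Hspa1b followed that list with r = 0.453 and rho = 0.430 (0.694 in batch 2). So did Bag3 (r = 0.450), Dnajb1 (0.364) and Hspb1 (0.334) in batch 1, with adjusted permutation p of 0.00682, 0.0235 and 0.00816. In batch 2 these were at −0.426, 0.467 and −0.608. In batch 1 Hsph1 was the member nearest to the 10 medium spiny neuron markers (r = 0.532, rho = 0.572, adjusted permutation p 0.000123). In batch 2 it was at 0.333, behind Hspb1 (0.887), Hspa5 (0.617) and Bag3 (0.593). Hsph1 also followed the 6 cortical glutamatergic markers (r = 0.394, rho = 0.345, adjusted permutation p 0.00921, and 0.153 in batch 2). It ran against 7 lymphocyte markers (r = −0.445, rho = −0.421, adjusted permutation p 0.00287, and −0.224 in batch 2). Cell composition moves with these values, and its part in them was not tested.

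**Figure D5:**
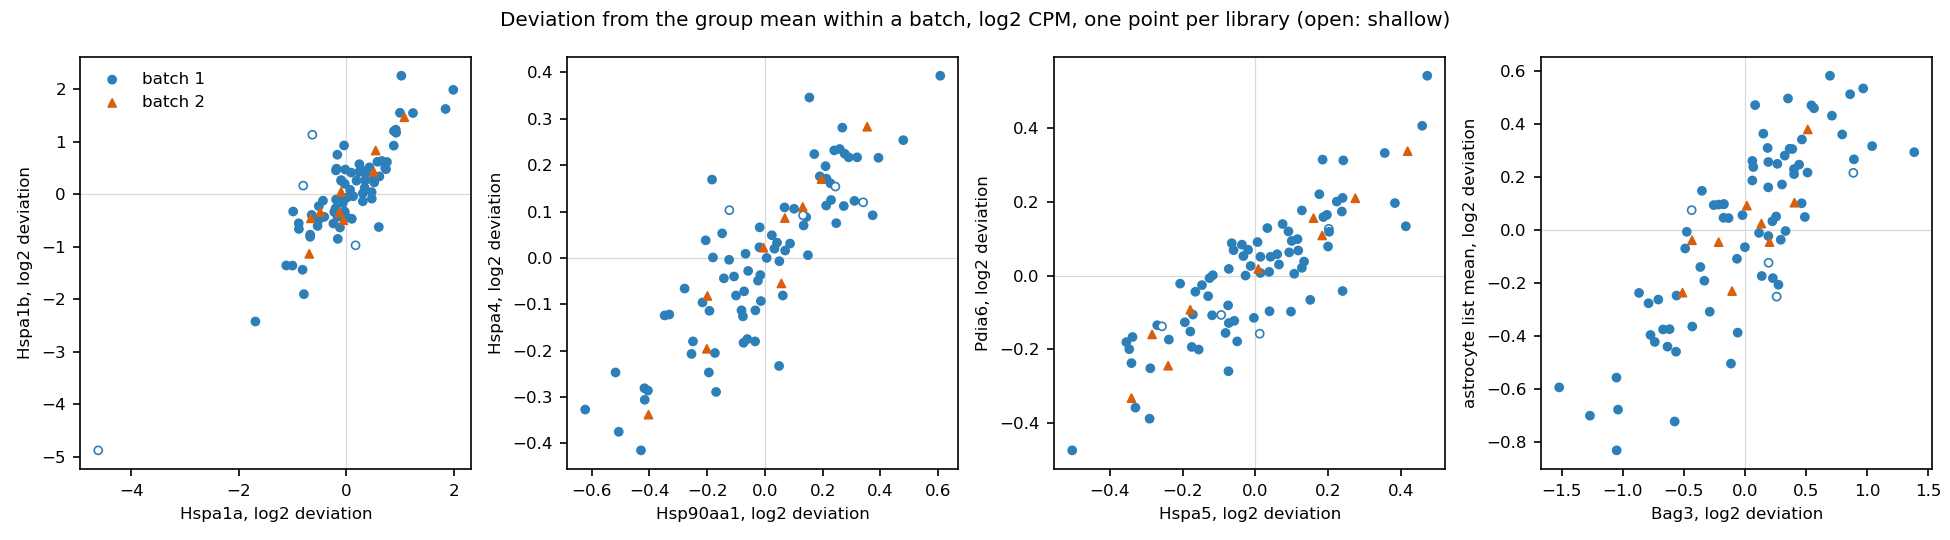
Deviation of each library from the mean of its group within a batch (log2 CPM), for Hspa1b against Hspa1a, Hspa4 against Hsp90aa1, Pdia6 against Hspa5, and the astrocyte list mean against Bag3; circles are the 78 libraries of batch 1, triangles the 9 of batch 2, open circles shallow libraries. Batch 2 libraries lie along the batch 1 cloud in each panel, and the open circle at the lower left of the first is library 19610, with counts of 0.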

How the data were processed

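Ribosomal RNA-depleted total RNA of nucleus accumbens was sequenced after a stranded library kit, per the labels' protocols. The authors deposited whole-number read counts per gene for 55487 genes with no normalization. Per the submitters' processing notes the build was mm10, and HISAT2, Trim Galore, SAMtools, DESeq2 1.27 and featureCounts (Subread) were used. Annotation and strandedness of the counting were not given in the sources used here. Columns were matched to 87 of 88 labelled libraries by the numbers in their titles; 1 column matched no label and was not used, and female D2 library 18402 was not analysed here. Symbols came from a mouse name table (93 identifiers without one) and positions and exon lengths from GENCODE M21.

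The members and the gene lists were chosen with earlier results of these data known. The model was edgeR 4.0.16 under R 4.3.3 (robust quasi-likelihood on the deposited counts, TMM, filterByExpr by group, 12 groups and sequencing batch), with Benjamini-Hochberg adjustment over the 25420 genes tested and a threshold of 0.05. The labels do not say whether libraries are separate animals, so p-values measure the spread between these libraries. Levels are CPM scaled by TMM, and covariation used log2 CPM with a prior count of 2, as deviations from the group mean within a batch. Permutations were of libraries within groups (100000 resamples in batch 1, 4320 exact in batch 2, two-sided). Named were all members, up to 4 passing genes of each list, and per member the 3 genes with the highest and 2 with the lowest r in batch 1 among genes of at least 5 CPM. Alternatives were DESeq2 size factors, no filter, DESeq2 1.42.0, limma-voom (limma 3.58.1), no batch term, arms fitted alone, single batches, and leaving out libraries. The fits and correlations were tested on simulated data. Floors for a count of 0 use 3 counts and cover counting error alone.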

Additional observations from a re-analysis of the deposited data

Results flagged for a closer look

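In 10 of 110 groups of 4 to 10 libraries (10 members, 11 groups of that size) a single library lay far from its nearest neighbour relative to the range of the group. The limit used gives about 1 in 20 by chance for independent, normally distributed values. Normality was not tested for these CPM, members covary, libraries 18383 and 19109 recur, and the male D2 groups mix both batches. The number of flags is therefore no measure of an excess over chance. None of the 10 far values was in a shallow library. The inducible Hsp70 genes gave 7 of them. Control library 19109 of male D1-D2 mice was the highest of 7 in Hspa1a (8.85 CPM, next 3.69) and Hspa1b (11.0 CPM, next 3.81). Hspa1a was also far out in male D1 library 18366 with the Fosb guide (2.61 CPM, next 1.43). Hspa1b was far out in library 3632 of male D2 mice with the Fosb guide (4.81 CPM, next 2.11), in control libraries 3631 of male D2 mice (7.07 CPM, next 3.41) and 17906 of female D2 mice (6.16 CPM, next 2.97), and in control library 18383 of male D1 mice (10.7 CPM, next 1.61).

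Library 18383 was also the highest of the 4 male D1 controls in Hsph1 (225 CPM, next 108) and Hspb1 (8.61 CPM, next 4.41), and its 10 most abundant genes held 56.2% of its counts. The other value was low: Hspa8 in male D1 library 18130 with the Fosb guide, at 994 CPM where the next library had 1080.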

How the results depend on the processing

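Of 1230 values of single members recomputed under other settings, 1203 moved by less than the residual spread of the gene and kept their side of the threshold, 9 moved by more, 11 came to pass and 7 no longer passed. None reversed a call. That spread was wide, with log2 SDs of 1.045 for Hspa1b, 0.88 for Hspa1a and 0.872 for Hspb1, so the 1203 say little about stability. A value could change sign within it, as Hsp90aa1 in male D1 mice did (−0.18, and 0.066 without 1 control). The counts changed as follows, and except where fewer libraries entered a fit the cause was not tested.

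Members that passed between female and male controls (2) were 0 with DESeq2 size factors, with DESeq2 and in batch 1 alone, 1 with no filter on low counts and 3 with no batch term, where Hspa5 joined both. In males, without against with the need for Cre, they were 1 with DESeq2 and 4 with limma-voom in place of 0.

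Genes that passed between guides were 0 in place of 1 in female D1 mice with DESeq2, limma-voom or each arm fitted alone. In male D1 mice they were 746 with limma-voom and 1 without the 2 female libraries with Y-linked transcripts, in place of 0. In female D2 mice they were 4 with DESeq2 and 1 without those 2 libraries, in place of 0. In male D2 mice 16 became 122 with no filter, 427 with no batch term, 5 with DESeq2, and 0 with limma-voom, with each arm alone or in either batch alone. In female D1-D2 mice 0 became 2 with DESeq2, 193 with limma-voom and 5 without those 2 libraries. In male D1-D2 mice 1 became 0 with limma-voom, with each arm alone or without the shallow libraries, and 2 without those 2 female libraries. For the D1 effect minus the D2 effect 1 became 2 with DESeq2 and 0 with limma-voom or in batch 1 alone.

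Among control groups, 5 genes between D2-Cre and D1-Cre females became 3 with no filter, limma-voom, no batch term, without the shallow libraries or without the 2 Y-linked ones. Without against with the need for Cre, 1 became 50 with limma-voom in females, and in males 2567 became 1483 with no filter, 8904 with limma-voom and 0 with no batch term. Of the 50 nearest and most opposed genes 26 were chosen again by Spearman rho and 24 without the shallow libraries.

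Leaving out each library of the groups of 4 gave 0 to 2 members and 0 to 4 genes in male D1-D2 mice, 2 to 4 members between the sexes, and 0 to 1 members and 0 to 2645 genes in males without against with the need for Cre. In the mean over the arms and in male D1 mice it gave 0 members throughout. Batch 2 alone, the leaving out of the libraries with Y-linked transcripts, and the leaving out of single libraries in contrasts other than those between guides within an arm were chosen after seeing the data.

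No paired analysis was possible because the library numbers are shared by no groups. Levels of Hspa1a, Hspa1b and Hspb1 in shallow libraries rest on few counts.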
